A study of Xenopus laevis with 6 samples.

Results

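Transcripts of the respiratory chain, ATP synthase and mitochondrial ribosome were compared between NICD-injected and untreated explants of the animal pole of Xenopus laevis, a frog. The members were taken by symbol from the array's platform annotation: all names that begin as those of the subunits and assembly factors of complexes I to IV and ATP synthase, cytochrome c, the electron transfer flavoprotein and the mitochondrial ribosomal proteins. The rule found 113 symbols among the 7531 that the array annotates, 75 of the respiratory chain and ATP synthase and 38 of the mitochondrial ribosome. They stand for 97 genes, since Xenopus laevis carries many genes as a .L and a .S copy (homeologs) and both copies were on the array for 16 of them. Where a symbol had several probe sets, the one with the highest mean was used. Both groups were ectoderm cut from the animal pole at stage 8 and cultured alone until sibling embryos reached stage 20. The NICD group (2 arrays) came from embryos injected with NICD, the intracellular domain of Notch, a receptor fragment that acts in the nucleus as an activator of transcription. The untreated group (4 arrays) came from untreated embryos, and the series' design text calls those explants pooled. A control injection is not among the labels, so NICD and the act of injecting cannot be told apart. Whether the arrays of a group stand for separate experiments is not stated either, so that p-values cover only how these samples vary, possibly for technical reasons.

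The respiratory chain sits in the inner mitochondrial membrane. Complex I takes electrons from NADH and complex II from succinate, complex III passes them to cytochrome c, and complex IV hands them to oxygen. Protons pumped on the way drive ATP synthase, and the electron transfer flavoprotein feeds in electrons from fatty acid breakdown. Most subunits are encoded in the nucleus, but several core subunits come from mitochondrial DNA and are made by the mitochondrial ribosome, whose proteins are themselves nuclear-encoded. In frog larval skin the ionocytes are also known as mitochondrion-rich cells, and multiciliated cells spend ATP on ciliary beating. Transcripts of the mitochondrial genome itself were looked for under their usual names and no probe set was annotated to one.

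Each value is a MAS5 signal of a probe set on 1 Affymetrix array, scaled by the authors to the same trimmed mean. Median signals lay between 154 and 170.1 in the NICD arrays, against 157 to 177 in the untreated arrays. The arrays were hybridised and scanned on 2 days, with NICD 1, untreated 1 and untreated 2 on day 1 and NICD 2, untreated 3 and untreated 4 on day 2. Both NICD arrays and no untreated array were washed in fluidics module 4, and this wash and the treatment cannot be told apart. RNA quality was read from the gapdh control probe sets, whose 3' over 5' ratio was 4.21 and 2.98 in NICD 1 and NICD 2, against 2.70 to 3.54 in the untreated arrays. The ratio of the actb control probe sets was far lower, with 0.15 and 0.11 in NICD 1 and NICD 2, against 0.092 to 0.20 in the untreated arrays. These controls therefore give no single reading of RNA quality. Changes are differences of log2(signal + 32), NICD minus untreated, and were tested with limma across the 10368 probe sets that passed a filter on low signals, with p-values adjusted over all of them. As a check of the tissue, the epidermal keratin krt12.4.S had signals of 15956 to 21015 in the untreated arrays.

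In NICD explants the small ribosomal protein mrps15.L (2.27 on the log2 scale), the complex IV subunit cox4i2.S (1.62) and the complex I subunit ndufa8.L (1.43) rose most among the members, the first of them on untreated signals below the filter. The alpha subunit of ATP synthase, atp5f1a.L (-1.09), and the complex I subunits ndufs6.S (-1.07) and ndufb4.S (-0.96) fell most. Of 110 members tested, 11 rose and 8 fell in NICD explants, 17.3% in all, at an adjusted p under 0.05. Over all probe sets tested 31.6% changed, 15.3% upwards and 16.2% downwards. The median log2 change of the members was 0.22 (0.077 on day 1 and 0.28 on day 2), against 0.052 for all probe sets tested and 0.10 for all symbols tested with 1 probe set each. Of the 19 calls, 7 were among the 37 mitochondrial ribosomal proteins tested (18.9%) and 5 among the 18 ATP synthase members tested (27.8%). Both shares are below the 31.6% of all probe sets. All 7 called mitochondrial ribosomal proteins were higher and all 5 called ATP synthase subunits were lower. The remaining calls were 3 in complex I, 2 in complex IV, and 1 each in complex III and the electron transfer flavoprotein. With 1 probe set per symbol, 31.3% of all symbols tested changed, 16.7% upwards and 14.6% downwards. Without NICD 1, 12 members were higher (11.2% of all probe sets) and 2 lower (13.9%). Without NICD 2, 3 were higher (7.29%) and 3 lower (8.94%). Leaving out an untreated array gave 10 to 14 higher members, and 3 lower without untreated 1 or untreated 4, 4 without untreated 2 and 7 without untreated 3. Over all probe sets these 4 fits called 13.5%, 13.4%, 14.9% and 13.0% higher and 15.0%, 14.8%, 15.1% and 14.4% lower, in the order of the arrays. With the processing day as a block 21 members rose and 12 fell, the 19 calls among them, where 40.2% of all probe sets changed, 20.4% upwards and 19.8% downwards. Centring each array on its median gave 5 lower members, where it called 15.7% of all probe sets higher and 16.0% lower. Testing without the filter on low signals gave 4, and called 10.2% of all probe sets higher and 10.6% lower. At an adjusted p under 0.10, 21 members were higher, where 20.4% of all probe sets were higher and 19.5% lower. With the replicate number as a block 5 members were lower, where 14.3% of all probe sets were higher and 14.7% lower. In these bulk samples, fewer cells of a type and less RNA per cell cannot be told apart.

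Markers of skin cell types, the mitochondrion-rich ionocytes among them, differed between the groups. Of 10 ionocyte markers tested 9 fell in NICD explants and none rose, and the summed signal of the 11 on the array was 2273 and 1937 in the NICD arrays, against 12945 to 14610.0 in the untreated arrays. The largest part of the NICD sums was atp6v1a.L, which did not pass. It had 1120 and 1138 in the NICD arrays, against 700 to 941 in the untreated arrays. The defining ionocyte regulator foxi1.L stood at 46.8 and 12.8 in the NICD arrays, against 2154, 1853, 2178 and 2910.2 in the untreated arrays. Of 11 multiciliated cell markers 9 fell and none rose, with a summed signal of 17766 and 14305 in the NICD arrays, against 31066 to 43098 in the untreated arrays. Most of the NICD sums came from tubb4b.L, which did not pass. It had 13888 and 12111 in the NICD arrays, against 12310 to 23491 in the untreated arrays, so the sums understate the fall of the called markers. The epidermal list had 1 higher and 10 lower of 15, with a summed signal of 74379.9 and 78184 in the NICD arrays, against 111994 to 186639 in the untreated arrays. Most of the NICD sums came from krt70.S (20811 and 27741), epcam.L (15642 and 23962.5) and epcam.S (9988 and 11423). Of these epcam.L was the higher one and the others did not pass, so the sums understate the fall of the markers called lower. Neural progenitor markers went the other way, with 8 of 10 higher, none lower, and a summed signal of 19229 and 20284 in the NICD arrays, against 1769 to 2369 in the untreated arrays. Of 3 muscle markers tested 2 fell and none rose, with a summed signal of 846 and 704 in the NICD arrays, against 1426 to 1879 in the untreated arrays. None of 2 blood markers and 1 endoderm marker passed the test. Over all probe sets tested 15.3% were higher and 16.2% lower. Some called markers passed the filter only through the group where they were high, and had to differ. In the ionocyte list these were foxi1.L, atp6v1b1.L, ca2.L, ca2.S, slc4a1.L and ubp1.L. In the multiciliated list they were cfap52.S, spag6.L, tekt2.L and tekt2.S, and in the neural list zic1.S and zic2.L. For atp12a.L, ccno.L and cetn4.L, NICD 1 was above the filter level but NICD 2 was not, so they needed untreated arrays to pass. The part of these cell types in the changes of the members was not tested.

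**Figure D1:**
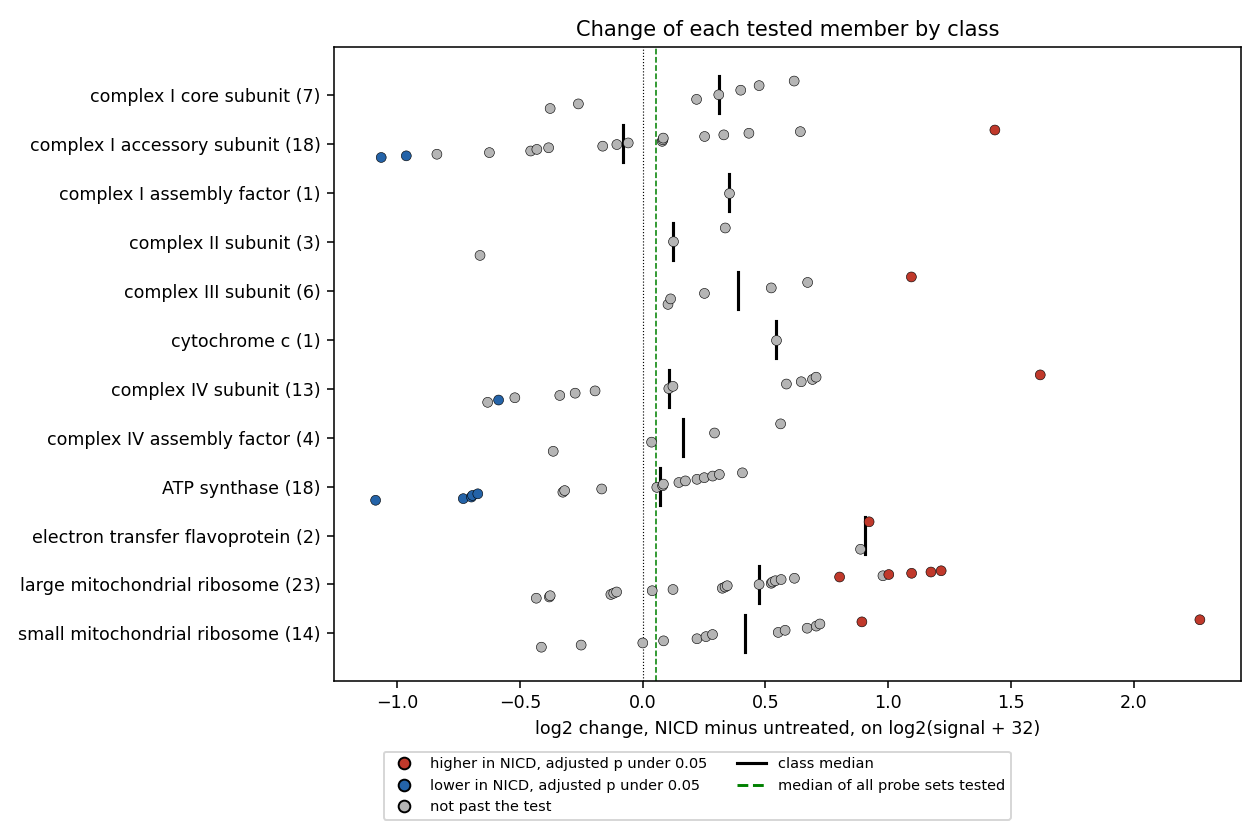
Log2 change (NICD minus untreated, on log2(signal + 32)) of the 110 tested members in 12 classes, 1 point a member, with the class median as a bar and the median of all probe sets tested as a dashed line. Red points passed the test as higher in NICD explants and blue ones as lower. Mitochondrial ribosomal calls are all to the right, and those of ATP synthase all to the left, between -1.09 and -0.67.

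Of 37 mitochondrial ribosomal proteins tested, 7 rose in NICD explants and none fell. That is 18.9% higher, near the 15.3% of all probe sets, and 0 lower where 16.2% of all probe sets were. The subunit of each was taken from its symbol alone (mrpl or mrps), and its place in the ribosome was not checked. By this naming the large subunit had 5 higher of 23 and the small subunit 2 of 14. The counts of the small subunit and of all 37 include mrps15.L, which passed the filter only through the NICD arrays. Their medians were 0.47 (0.31 on day 1 and 0.61 on day 2) and 0.42 (0.30 on day 1 and 0.38 on day 2). The change was positive for 29 of 37 members (78.4%, against 53.1% of all probe sets and 56.4% of all symbols tested with 1 probe set each). Both NICD arrays lay above every untreated array in 17 of them and below in 2, where 26.7% and 24.2% of all probe sets did.

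The largest change of any member was that of mrps15.L, a small subunit protein with a bacterial counterpart that binds ribosomal RNA. Its signal was 398 and 711 in the NICD arrays, against 97.2, 89.2, 69.4 and 86.6 in the untreated arrays. Both NICD arrays lay above every untreated array, and the log2 change was 2.27 ± 0.27 (SE; adjusted p = 0.000187), 1.78 on day 1 and 2.76 on day 2. All 4 untreated signals lay below the 40th percentile of their arrays (103 to 116), so mrps15.L passed the filter only through the NICD arrays, where it was high, and had to differ. It was the 1 tested member with every array of a group below that percentile. Tested without the filter its adjusted p was 0.000471. The size of its change depends on the pseudocount, and it was 2.63 with 1 and 1.89 with 80. The other small subunit call was mrps9.L, whose bacterial counterpart contacts the peptidyl transfer RNA, with 554 and 855 in the NICD arrays, against 377, 474, 317 and 282 in the untreated arrays. Its log2 change was 0.89 ± 0.27 (SE; adjusted p = 0.0306) and uneven over the days (0.37 on day 1 and 1.42 on day 2).

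In the large subunit, mrpl11.S belongs to the stalk base where translation factors bind, and its signal was 452 and 678 in the NICD arrays, against 160.4, 199, 271 and 270.0 in the untreated arrays. The groups did not overlap, and the log2 change was 1.22 ± 0.27 (SE; adjusted p = 0.00753), 1.20 on day 1 and 1.23 on day 2. The probe set used for mrpl11.S is marked by its name as sharing probes with other sequences. Another tested probe set of mrpl11.S, without that mark, changed by 0.79 and did not pass (adjusted p = 0.0987). The mitochondria-specific protein mrpl37.L had 356 and 410.2 in the NICD arrays, against 202, 147, 169 and 103 in the untreated arrays, a log2 change of 1.17 ± 0.26 (SE; adjusted p = 0.00707). For mrpl15.L the signals were 647 and 1020.5 in the NICD arrays, against 338, 300.0, 332 and 514.5 in the untreated arrays, and the change was 1.10 ± 0.28 (SE; adjusted p = 0.014). The protein mrpl3.S, whose bacterial counterpart lies near the peptidyl transferase centre, had similar signals within each group. It had 838 and 821 in the NICD arrays, against 422, 409.7, 429 and 337 in the untreated arrays, and it changed by 1.00 ± 0.21 (SE; adjusted p = 0.00586), a 2.00-fold difference on this scale. The stalk protein mrpl12.L, also known to bind the mitochondrial RNA polymerase in mammals, had 625 and 612 in the NICD arrays, against 345, 355, 373 and 296 in the untreated arrays and changed by 0.80 ± 0.21 (SE; adjusted p = 0.0162). Within-day changes of these last 4 lay between 0.78 and 1.43.

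The call of mrpl3.S held with each array left out in turn, as did that of mrps15.L, on the limit given above. Leaving out NICD 2 ended those of mrpl11.S, mrpl12.L, mrpl15.L, mrpl37.L and mrps9.L, and 2 members were then higher. Leaving out NICD 1 ended that of mrpl12.L, and leaving out untreated 3 or untreated 4 that of mrps9.L. With the day as a block mrpl38.L, mrpl44.S, mrps7.L, mrps17.L and mrps26.L also passed, which gave 12 higher and 0 lower. For mrps26.L, untreated 2 lay well below the other untreated arrays, and for mrps7.L another probe set changed by 0.16 and did not pass. Members that did not pass in either fit ranged from -0.43 (mrpl23.S) to 0.72 (mrps30.L). The protein mrpl38.L, with the largest change short of the test, had 1727 and 1180.4 in the NICD arrays, against 1009.6, 692, 905 and 395 in the untreated arrays, where untreated 4 was the lowest and untreated 1 the highest of the untreated arrays. Of the 38 members, mrps11.L was not tested, with 25.6 to 62.9 over all arrays.

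**Figure D2:**
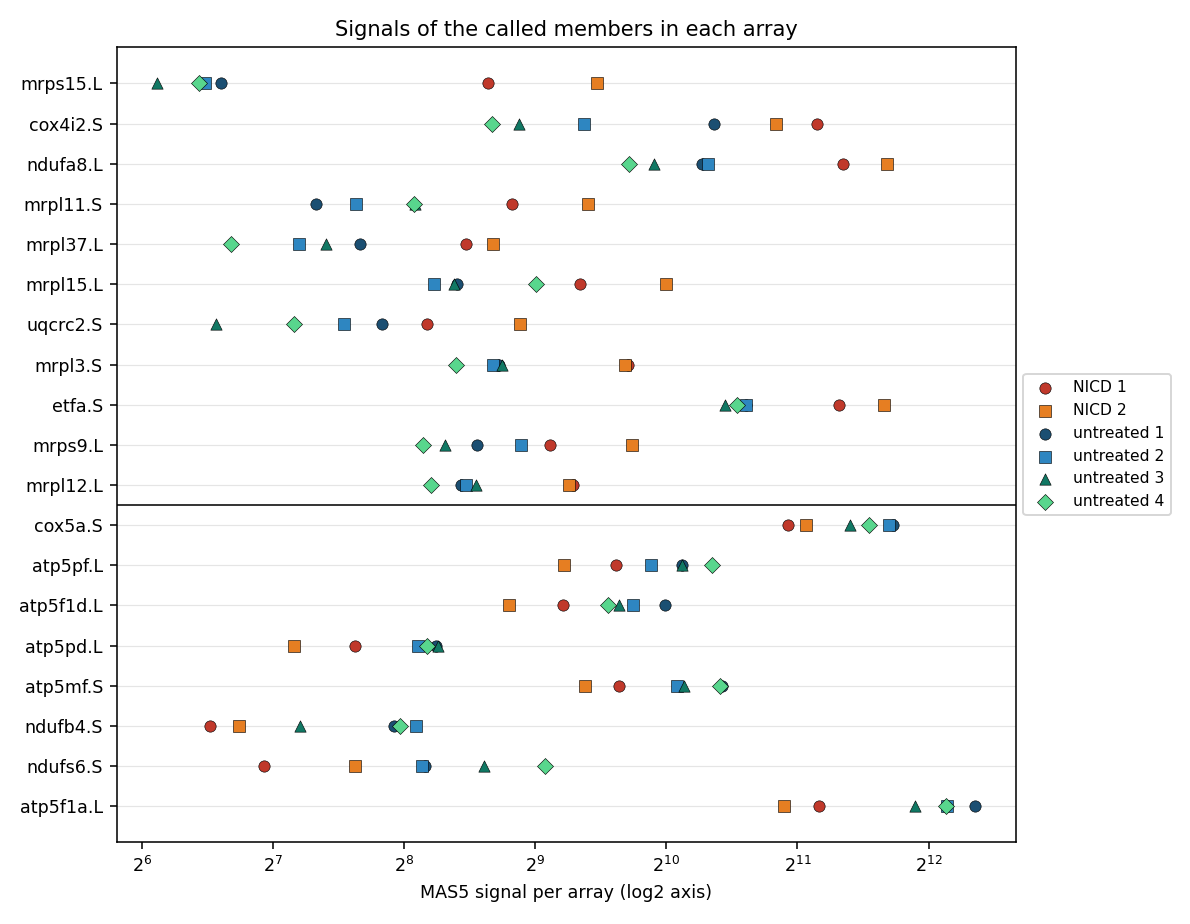
MAS5 signal (log2 axis) of the 19 called members in each array, with 11 higher members above the line and 8 lower ones below it, each ordered by log2 change. Red and orange points are the NICD arrays and blue and green ones the untreated arrays. The NICD points lie outside the untreated points in all 19. The 19 were called from these same arrays, so this separation adds no support to the calls. Of all probe sets tested, called or not, 51.0% met it (26.7% above and 24.2% below).

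ATP synthase subunits were divided. Of 18 members tested, the inhibitor atp5if1.L among them, 5 fell in NICD explants and none rose. The share lower was 27.8%, against 16.2% of all probe sets, and the median was 0.069, though it was negative within each day (-0.12 on day 1 and -0.027 on day 2). Both NICD arrays lay below every untreated array in 6 of the 18, a condition met by 24.2% of all probe sets. All 5 subunits called from these same arrays were among the 6. The called subunits came from the catalytic head (atp5f1a.L), the central rotor (atp5f1d.L), the stator stalk that holds the head still (atp5pd.L and atp5pf.L) and the membrane part (atp5mf.S).

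The alpha subunit atp5f1a.L forms the head together with the catalytic beta subunit. Its signal was 2291 and 1909 in the NICD arrays, against 5229.6, 4510.5, 3813 and 4491 in the untreated arrays, a log2 change of -1.09 ± 0.21 (SE; adjusted p = 0.00314), with -1.07 on day 1 and -1.10 on day 2. The beta subunit atp5f1b.S had 9098 and 10483 in the NICD arrays, against 9766, 8378, 6758 and 6898 in the untreated arrays. It did not pass, and its change of 0.31 (95% interval -0.14 to 0.77) lay apart from that of the alpha subunit, but the difference between these subunits was not tested. The delta subunit atp5f1d.L, at the foot of the central rotor, had 592 and 446 in the NICD arrays, against 1014, 859, 799 and 753 in the untreated arrays and changed by -0.69 ± 0.23 (SE; adjusted p = 0.0443). Both copies of the gamma subunit, the rotor shaft, were close to 0, with changes of 0.081 (atp5f1c.L, 95% interval -0.38 to 0.54) and 0.084 (atp5f1c.S).

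In the stator stalk, subunit d (atp5pd.L) had 197 and 143 in the NICD arrays, against 303, 275, 306 and 289 in the untreated arrays, a log2 change of -0.70 ± 0.22 (SE; adjusted p = 0.0342), with -0.48 on day 1 and -0.91 on day 2. Its copy atp5pd.S had 1045 and 947 in the NICD arrays, against 1370.3, 1074, 579.9 and 552 in the untreated arrays and changed by 0.25, not past the test. The 2 untreated arrays of day 1 were higher than both NICD arrays there, and those of day 2 lower than both. The coupling factor atp5pf.L had 785 and 597 in the NICD arrays, against 1114, 942, 1113 and 1301 in the untreated arrays and changed by -0.67 ± 0.23 (SE; adjusted p = 0.0491). Subunit b (atp5pb.L 0.15, atp5pb.S -0.33) and the oligomycin sensitivity protein (atp5po.L -0.32, atp5po.S -0.17) did not pass.

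In the membrane part, atp5mf.S had 796 and 666 in the NICD arrays, against 1375, 1083, 1126 and 1363 in the untreated arrays, with a change of -0.73 ± 0.22 (SE; adjusted p = 0.0297). The c subunits, which form the rotating ring, did not pass: atp5mc3.S changed by 0.057 (95% interval -0.43 to 0.55), atp5mc1.S by 0.17 and atp5mc1.L by 0.41, with untreated 3 far above the other untreated arrays. The inhibitor atp5if1.L, which blocks the enzyme when it runs backwards, differed between the days. It had 2377 and 804 in the NICD arrays, against 1869.9, 1457, 907 and 793 in the untreated arrays, with NICD 1 above both untreated arrays of day 1 and NICD 2 between those of day 2. Apart from atp5f1a.L, which kept its call with each array left out, each call in this complex ended for at least 4 of the 6 arrays when it was left out. Without NICD 1 or untreated 2 or 3, 2 subunits were lower, and without NICD 2, untreated 1 or untreated 4 only atp5f1a.L was. Without untreated 3, atp5mc1.L was called higher. All 5 calls held with the day as a block.

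In complex I, ndufa8.L rose and ndufs6.S and ndufb4.S fell in NICD explants, 1 higher and 2 lower of 25 subunits tested (4.00% and 8.00%, against 15.3% and 16.2% of all probe sets). The median change was 0.079 (-0.029 on day 1 and 0.19 on day 2). The core subunits tested belong to the arm where flavin and iron-sulphur clusters move electrons, and they had no call among 7 and a median of 0.31 (-0.009 on day 1 and 0.55 on day 2). The accessory subunits, which surround the core, had a median of -0.082 (-0.24 on day 1 and 0.049 on day 2) and held all 3 calls. Among them ndufb9.L changed by -0.43 and ndufb10.S by -0.16, while another probe set of each changed by 0.42, none past the test. The subunit ndufa8.L, which faces the intermembrane space, had 2602 and 3297 in the NICD arrays, against 1236, 1276, 962 and 842 in the untreated arrays. Both NICD arrays lay above every untreated array, with a log2 change of 1.43 ± 0.25 (SE; adjusted p = 0.00173), 1.03 on day 1 and 1.84 on day 2, and the call held with each array left out.

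In the other direction, ndufs6.S, a zinc-binding subunit of the electron input arm, had 122 and 198 in the NICD arrays, against 286, 281, 389.6 and 538 in the untreated arrays. The change was -1.07 ± 0.30 (SE; adjusted p = 0.022), with -1.04 on day 1 and -1.09 on day 2. The membrane arm subunit ndufb4.S had 91.6 and 107 in the NICD arrays, against 243, 273, 148 and 251 in the untreated arrays, with a change of -0.96 ± 0.26 (SE; adjusted p = 0.0193). Leaving out NICD 1 ended both of these calls, and leaving out NICD 2 that of ndufb4.S. With the day as a block ndufa3.L (0.64) and ndufs7.L (0.62) were also higher, and ndufb8.L (-0.84) and ndufc2.S (-0.62) also lower.

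Among the core subunits, ndufv1.L, which binds the NADH-oxidising flavin, had 1301 and 1959.8 in the NICD arrays, against 1959.7, 1785, 2056 and 1898 in the untreated arrays and changed by -0.26 (95% interval -0.77 to 0.24). The subunit ndufs1.L, the largest of the electron input arm, had 1309 and 1959 in the NICD arrays, against 1266, 1054, 1073 and 1196 in the untreated arrays and changed by 0.47 (95% interval -0.046 to 0.99). In each, NICD 2 was above NICD 1, and for ndufs1.L both lay above the untreated range. The assembly factor ndufaf7.S, a methyltransferase that acts on a core subunit, had 236 and 320.1 in the NICD arrays, against 204, 188, 214 and 229 in the untreated arrays and did not pass (0.35). The subunit ndufs4.S was not tested, with 31.4 to 98.7 over all arrays. The gene named ndufa4, now known to encode a subunit of complex IV in mammals, changed by -0.059 (ndufa4.L) and 0.43 (ndufa4.S), neither past the test. Both copies were counted with the accessory subunits of complex I, by their name. The changes of the copies of ndufs3 were 0.22 (ndufs3.L) and -0.38 (ndufs3.S), the second with untreated 4 above the other untreated arrays.

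None of the 3 complex II subunits tested passed, and their median was 0.13 (0.11 on day 1 and 0.14 on day 2). The flavoprotein subunit sdha.L, which oxidises succinate, had 1699 and 1050.2 in the NICD arrays, against 1971, 1254, 1251 and 718 in the untreated arrays, with a change of 0.13 (95% interval -0.68 to 0.93). The iron-sulphur subunit sdhb.S had 827 and 438 in the NICD arrays, against 1084, 1151, 668 and 1076 in the untreated arrays, a change of -0.66 (adjusted p = 0.133). With the day entered as a block it was called lower (adjusted p = 0.0474). Untreated 3 lay well below the other untreated arrays and below NICD 1. The membrane anchor sdhd.S changed by 0.34. The copy sdha.S was not tested, with 45.9 to 139 over all arrays.

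In complex III the change was positive for all 6 members tested, both copies of uqcrc2 among them, where it was for 53.1% of all probe sets. It was positive on both days in 4 and of opposite sign on the days in 2. Of the 6, 1 passed, where 15.3% of all probe sets were higher. The median was 0.39 (0.31 on day 1 and 0.54 on day 2). The core protein uqcrc2.S had 288 and 473 in the NICD arrays, against 228, 186, 94.7 and 143 in the untreated arrays, a log2 change of 1.09 ± 0.32 (SE; adjusted p = 0.0254) that was uneven over the days (0.43 on day 1 and 1.76 on day 2). Its copy uqcrc2.L had 1195 and 1409.8 in the NICD arrays, against 971, 763, 995 and 862 in the untreated arrays and changed by 0.52 (adjusted p = 0.0978), with both NICD arrays above the untreated range. The call of uqcrc2.S ended without NICD 2 or untreated 4, and without untreated 4 uqcrq.S (0.67) was called higher. The haem subunit cyc1.L changed by 0.10 (95% interval -0.38 to 0.58; another probe set by -0.081), uqcrc1.L by 0.11 and uqcrb.S by 0.25. Cytochrome c (cycs.S), the mobile carrier between complexes III and IV, had 1788 and 1565 in the NICD arrays, against 1345, 1521, 1008 and 806 in the untreated arrays. Both NICD arrays were the highest of the 6, but the change of 0.54 did not pass (adjusted p = 0.163). Among the untreated arrays those of day 1 were above those of day 2.

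Both subunits of the electron transfer flavoprotein had positive changes. The alpha subunit etfa.S had 2548 and 3239 in the NICD arrays, against 1562, 1561, 1395 and 1491 in the untreated arrays, and the NICD arrays lay above all untreated ones, with a log2 change of 0.92 ± 0.21 (SE; adjusted p = 0.00724), 0.69 on day 1 and 1.15 on day 2. The beta subunit etfb.L had 424 and 649.7 in the NICD arrays, against 264, 441, 189 and 235 in the untreated arrays, where untreated 2 exceeded NICD 1, and a change of 0.89 (adjusted p = 0.0593). With the day entered as a block it was called higher (adjusted p = 0.0407). The call of etfa.S ended without NICD 2, and that of etfb.L appeared without untreated 2.

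Complex IV had 1 subunit higher and 1 lower of 13 tested, 7.69% each way, against 15.3% and 16.2% of all probe sets. The median was 0.11 (0.074 on day 1 and 0.14 on day 2). The higher one was cox4i2.S, the alternative form of the subunit also encoded by cox4i1, which in mammals is found mainly in lung and is induced by low oxygen. It had 2272 and 1832 in the NICD arrays, against 1318.5, 663, 469 and 408 in the untreated arrays. All NICD values were above the untreated ones, though untreated 1 was well above the other untreated arrays, and the change was 1.62 ± 0.40 (SE; adjusted p = 0.0119), 1.25 on day 1 and 1.99 on day 2. The copy cox4i2.L stayed near the filter in both groups, with 132 and 89.8 in the NICD arrays, against 124, 105, 68.5 and 99.3 in the untreated arrays (0.12). The common form cox4i1.S had 1556 and 1176 in the NICD arrays, against 1768, 1994, 1959 and 2118 in the untreated arrays, both NICD arrays below the untreated range, and its change of -0.52 did not pass (adjusted p = 0.0907, or 0.0531 under the day block). Its probe set is also marked as sharing probes. Another probe set of cox4i1.S changed by -0.48 and did not pass (adjusted p = 0.105).

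The lower subunit was cox5a.S, which lies on the matrix side, with 1949.8 and 2148 in the NICD arrays, against 3392, 3331, 2702 and 2988 in the untreated arrays and a change of -0.59 ± 0.20 (SE; adjusted p = 0.0485). The call of cox4i2.S ended without either NICD array, and that of cox5a.S without any one array except untreated 3. Further calls appeared for cox5b.2.L (0.71) without NICD 1, for cox7a2l.L (0.65) without untreated 3 and for cox6a1.S (0.69) without untreated 1. With the day as a block cox6a1.S was also higher and cox7a2.S (-0.63) also lower. The subunits cox6c.S (-0.28), cox7b.L (-0.19), cox7c.L (0.11) and cox7c.S (-0.34) passed in none of these fits. Of 4 assembly factors none passed. The copper carrier cox17.S had 1864 and 1616 in the NICD arrays, against 1200.1, 1269, 1033 and 1173 in the untreated arrays, both NICD arrays above the untreated range, and a change of 0.56 (adjusted p = 0.066, or 0.0301 under the day block). Its copy cox17.L had 1176 and 1181 in the NICD arrays, against 1479.8, 1078, 629 and 828 in the untreated arrays, and did not pass (0.29). The haem farnesyltransferase cox10.L (0.036) and cox16.L (-0.36) did not pass either.

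The complexes were set side by side by the median, over the tested members of each, of an array's deviation from the mean of the untreated arrays. For the large mitochondrial ribosome this was 0.25 and 0.53 in the NICD arrays, against 0.11, -0.075, 0.044 and -0.083 in the untreated arrays. For the small subunit it was 0.38 and 0.33 in the NICD arrays, against 0.080, 0.015, -0.13 and 0.086 in the untreated arrays. Complex III gave 0.42 and 0.44 in the NICD arrays, against 0.20, 0.052, -0.19 and -0.15 in the untreated arrays. The electron transfer flavoprotein, with 2 subunits, gave 0.67 and 1.14 in the NICD arrays, against 0.016, 0.35, -0.28 and -0.092 in the untreated arrays. In these 4 both NICD arrays lay above all untreated arrays.

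For complex I the values were -0.15 and 0.14 in the NICD arrays, against 0.14, 0.017, -0.090 and 0.020 in the untreated arrays. NICD 1 was the lowest and NICD 2 the highest of the 6 arrays. For complex IV they were 0.028 and 0.18 in the NICD arrays, against 0.13, 0.027, -0.15 and -0.048 in the untreated arrays, and for ATP synthase 0.034 and -0.12 in the NICD arrays, against 0.19, 0.017, -0.10 and -0.15 in the untreated arrays, with the NICD arrays among the untreated ones except NICD 2 in complex IV. Complex II, with 3 subunits, gave 0.46 and -0.21 in the NICD arrays, against 0.15, 0.23, -0.52 and 0.048 in the untreated arrays. In complex II both NICD arrays lay within or above the untreated range, NICD 1 being the highest of the 6. Members of a complex share the arrays and are no replicates, and the differences between complexes were not tested.

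**Figure D3:**
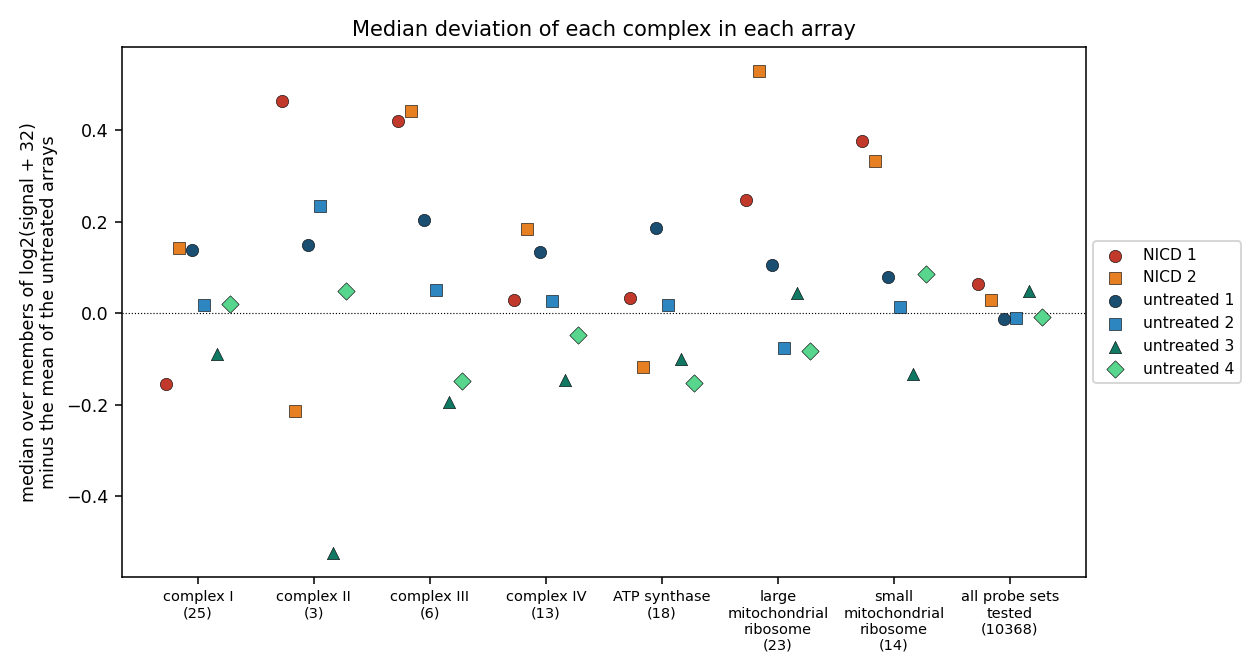
Median over the tested members of each complex (number in brackets) of log2(signal + 32) minus the mean of the untreated arrays, for each array. Red and orange points are the NICD arrays. They lie above all untreated points in complex III and both ribosomal subunits, between 0.25 and 0.53 for the large one, and next to 0 for all probe sets tested.

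Of 16 genes with both copies on the array, 15 had both copies tested. The changes of the copies had the same sign in 9 of these and opposite signs in 6. In 3 genes 1 copy passed the test and in none did both. These were cox4i2 (0.12 for .L, 1.62 for .S), uqcrc2 (0.52 and 1.09) and atp5pd (-0.70 and 0.25). The copies closest to each other were those of atp5f1c and mrpl41 (0.56 and 0.53). Outside the calls, the widest gap was in mrps30, with 0.72 for mrps30.L and -0.25 for mrps30.S. Copies resemble each other in sequence, and a probe set may pick up RNA of both. The differences between copies were not tested. The same counts over all genes with both copies on the array were not made, so these counts show nothing particular to the members. Of the 110 members tested 17.3% were called.

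**Figure D4:**
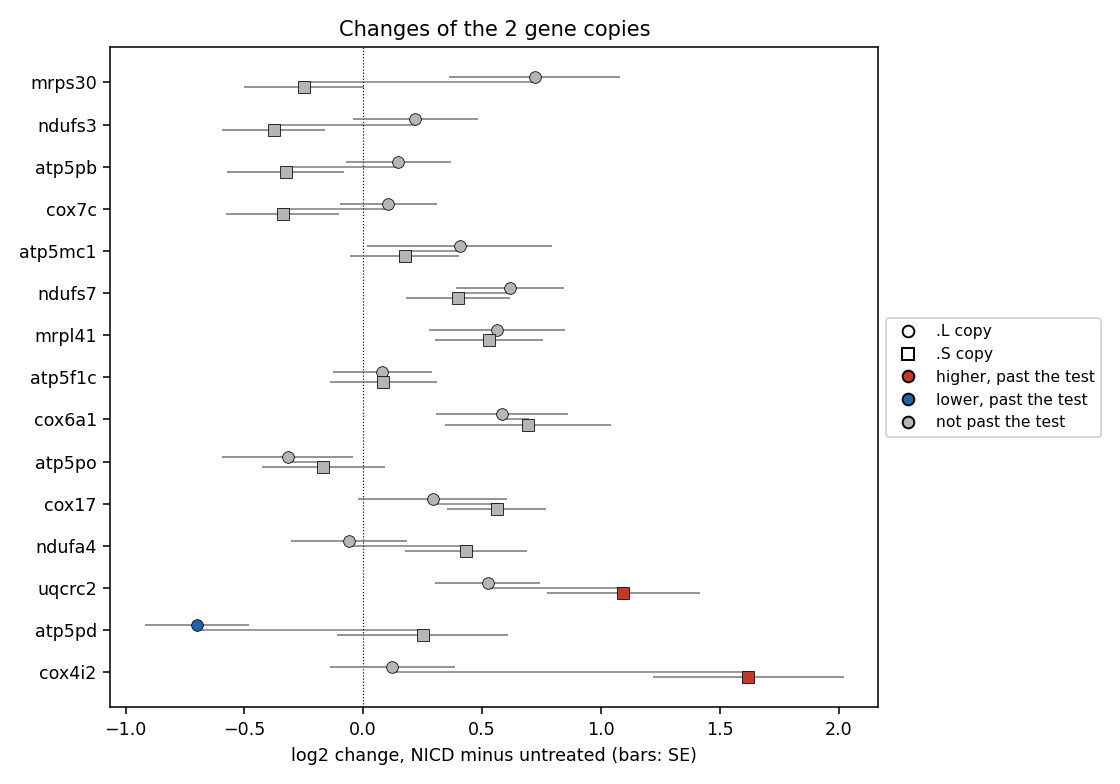
Log2 change (NICD minus untreated) of the .L copy (circle) and .S copy (square) of 15 genes, with SE bars and ordered by the difference between copies. Coloured points passed the test. A thin line joins the copies of a gene. The widest separation is in cox4i2, with 0.12 for .L and 1.62 for .S.

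Untreated explants differed between the processing days in many of the members. In 36 of the 73 tested respiratory chain members both day 1 untreated arrays were above both of day 2, and in 7 both were below. Over all probe sets the shares were 25.5% and 29.7%. For the mitochondrial ribosome the counts were 10 and 6 of 37. The median log2 difference of day 1 minus day 2 in untreated arrays was 0.16 for the respiratory chain and 0.077 for the mitochondrial ribosome, against -0.028 for all probe sets. It was widest in atp5pd.S (1.06), cox4i2.S (1.05), cox6a1.S (0.99) and atp5if1.L (0.93), and lowest in atp5mc1.L (-0.81).

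Within days, each NICD array was set against the 2 untreated arrays of its own day. The changes of the members had the same sign on both days for most of the 110, 55 positive and 28 negative. That is 75.5%, against 77.6% of all probe sets. All 19 called members were among them, but they were called from these same arrays, so this is no separate support. In the mitochondrial ribosome 22 were positive and 5 negative on both days, and in ATP synthase 6 and 7. The median of the respiratory chain was 0.0084 on day 1 and 0.15 on day 2.

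**Figure D5:**
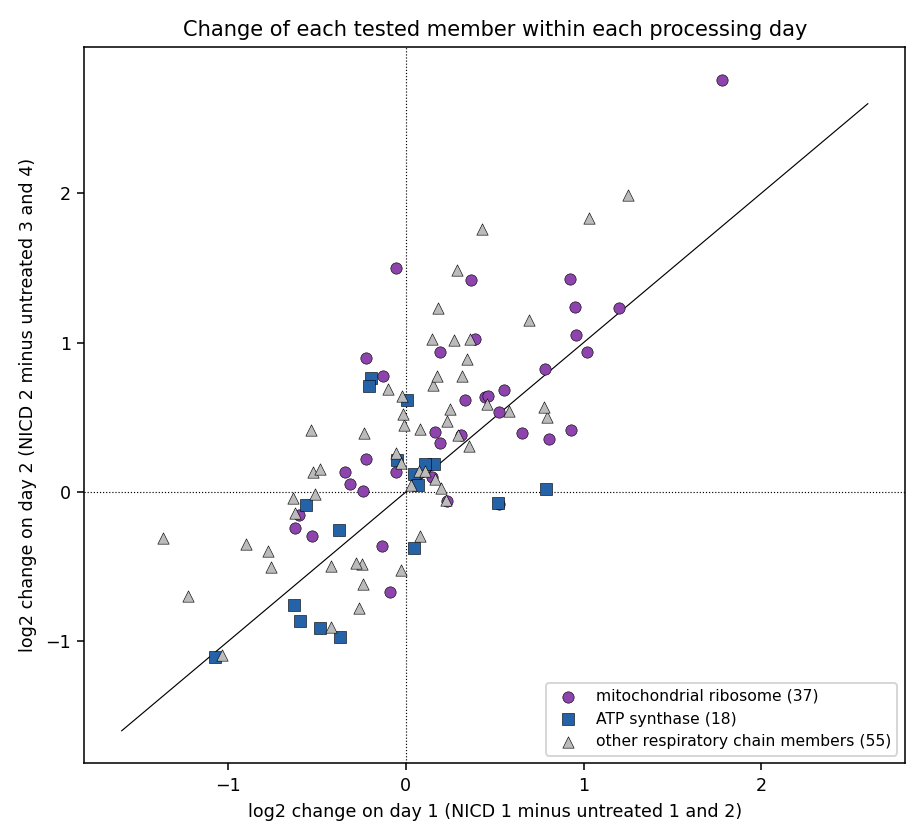
Log2 change of each tested member on day 1 (NICD 1 minus the mean of untreated 1 and 2, x axis) against that on day 2 (NICD 2 minus the mean of untreated 3 and 4, y axis), with the diagonal of equal change. Purple circles are mitochondrial ribosomal proteins, blue squares ATP synthase subunits and grey triangles the other members. The farthest point to the upper right is mrps15.L, with 1.78 and 2.76.

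Genes that supply and regulate the chain were taken from lists of other mitochondrial genes, to be read against the 15.3% higher and 16.2% lower of all probe sets. The shares higher lay between 6.25% and 17.9%, and the shares lower between 0 and 27.8%, the highest being that of the nuclear regulators. That share rests mostly on genes that passed the filter only through the untreated arrays, as given below. Of 28 genes of pyruvate oxidation and the citric acid cycle 5 rose and 3 fell, with a median of 0.27 (0.24 on day 1 and 0.27 on day 2). The kinase pdk4.S, which switches pyruvate dehydrogenase off, had 1495 and 1163 in the NICD arrays, against 173, 61.1, 271 and 176 in the untreated arrays and changed by 2.86 ± 0.40 (SE; adjusted p = 0.00054). A related kinase, pdk1.L, changed by 1.10 ± 0.27 (SE; adjusted p = 0.0117), and dlat.L, a subunit of the enzyme they act on, by 1.06 ± 0.26 (SE; adjusted p = 0.0106). The other copies of these kinases, pdk4.L (0.028) and pdk1.S (0.040), did not pass. Citrate synthase, cs.L, the entry enzyme of the cycle, had 2691 and 3594 in the NICD arrays, against 6015, 6412, 6531 and 6328 in the untreated arrays. It fell, with a change of -1.02 ± 0.19 (SE; adjusted p = 0.00306). So did the subunits of the mitochondrial pyruvate carrier mpc1.S (-0.85) and mpc2.S (-0.88), while the copy mpc1.L (-0.42) did not pass. The calls of pdk4.S and cs.L held with each array left out. Leaving out NICD 2 ended those of pdk1.L, dlat.L, mpc1.S and mpc2.S, and leaving out NICD 1 that of pdk1.L.

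Of 18 nuclear regulators of mitochondrial genes 2 rose and 5 fell, with a median of 0.30 (0.19 on day 1 and 0.063 on day 2). The oestrogen-related receptor esrra.L, known in mammals to activate genes of oxidative metabolism, had 75.1 and 17.5 in the NICD arrays, against 742, 834, 834 and 765 in the untreated arrays. Both NICD signals were below the 40th percentile of their arrays, so esrra.L passed the filter only through the untreated arrays, where it was high. It therefore had to differ. The size of its change, -3.50 ± 0.30 (SE; adjusted p = 3.25e-05), also depends on the pseudocount, and it was -4.40 with 1 and -2.83 with 80. The same limits hold for nfe2l2.L, ppara.L and pparg.L, all called lower. The remaining regulator called lower, ppara.S (-0.91), was above the filter level in all arrays of both groups. The oxidative stress regulator nfe2l2.L changed by -1.84 ± 0.27 (SE; adjusted p = 0.000646) and the fatty acid receptor ppara.L by -1.17 ± 0.27 (SE; adjusted p = 0.00804). The regulator yy1.S (1.18 ± 0.25 SE, adjusted p = 0.00591) rose, while its copy yy1.L (0.42) did not pass. Of 16 factors of mitochondrial DNA upkeep, transcription and translation 1 rose and 1 fell, with a median of 0.29. The mitochondrial DNA packaging factor tfam.L had 269 and 191 in the NICD arrays, against 369, 479, 397 and 349 in the untreated arrays. It fell (-0.72 ± 0.24 SE, adjusted p = 0.0402). The gene mterf3.S, of the mitochondrial transcription termination factor family, rose by 0.93. Only 1 untreated array of mterf3.S was above the 40th percentile, so it needed the NICD arrays, where it was high, to pass the filter. The call of tfam.L ended without NICD 2 or any untreated array, and that of mterf3.S without NICD 1. Those of ppara.L and yy1.S ended without NICD 2.

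In mitochondrial protein import 4 of 29 genes rose, 13.8% and near the 15.3% of all probe sets, and 0 fell, with a median of 0.17 (0.15 on day 1 and 0.19 on day 2). The import motor component grpel1.L had 663 and 936 in the NICD arrays, against 278, 320.2, 325 and 424 in the untreated arrays and changed by 1.17 ± 0.25 (SE; adjusted p = 0.00568). The others were mtx2.L (0.83) and samm50.S (0.82), which act in sorting proteins into the outer membrane, and chchd4.S (0.75), which acts in the intermembrane space on proteins such as those encoded by ndufa8 and cox17. Of 27 assembly and cofactor genes outside the symbol rule (median 0.23) 2 rose, hccs.L (0.92 ± 0.22 SE, adjusted p = 0.00893), which attaches haem to cytochrome c, and coq8a.S (0.78), which acts in ubiquinone synthesis. The genes higd1a.L (-1.41), whose product associates with the chain, and fdx1.L (-1.22), a ferredoxin, fell. Of 20 inner membrane carriers and porins 2 rose and 3 fell (median -0.060), led by the citrate carrier slc25a1.L, with 1755 and 1119 in the NICD arrays, against 8149, 7347, 4997 and 5987 in the untreated arrays (-2.19 ± 0.26 SE, adjusted p = 0.000212). The uncoupling protein gene ucp2.S (1.14) and the porin vdac1.S (0.94) rose, and the iron carrier slc25a28.S (-0.93) fell. Of 13 fatty acid oxidation genes (median 0.44) 2 rose, acadm.L (1.51 ± 0.24 SE, adjusted p = 0.00115) and acat1.S (1.21). Both copies of acsl1, which activates fatty acids, fell (acsl1.L -2.95, acsl1.S -2.45). For the other genes named here, further copies tested were chchd4.L (-0.26), coq8a.L (0.40), higd1a.S (0.27), ucp2.L (0.32), slc25a28.L (-0.44) and acadm.S (0.24). None of these further copies passed. Leaving out each array, the calls of slc25a1.L, acadm.L, acat1.S and the acsl1 copies held. Leaving out NICD 2 ended those of all 4 import genes and of hccs.L, coq8a.S, fdx1.L, ucp2.S, vdac1.S and slc25a28.S. Leaving out NICD 1 ended those of mtx2.L, coq8a.S, fdx1.L and higd1a.L. Without untreated 2 the calls of mtx2.L and chchd4.S ended, and without untreated 1 or untreated 4 that of vdac1.S. All these called genes kept their direction on both days, but they were called from these same arrays.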

How the data were processed

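RNA from 6 samples, 2 NICD and 4 untreated, was hybridised to 1 Affymetrix Xenopus laevis array each. The values are linear MAS5 signal intensities that the authors deposited, per the labels, and their trimmed mean near 500 on each array shows a global scaling. The software version and its settings are not given in the sources used here. Processing days and fluidics modules come from the deposited experiment files. Only 6 arrays limit the precision.

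Of 15611 probe sets in the table, 120 were array controls and were dropped. Symbols came from the platform annotation: 9304 of the other 15491 probe sets had 1 symbol, 195 several and 5992 none, and 9227 matched the RefSeq gene table of assembly Xenopus_laevis_v10.1. Probe sets naming both copies of 1 gene, 5 of them for the members, were left out and tried as an alternative chosen after seeing the data. No sequences are shown, since no sequence tables were used here.

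Signals were taken as log2(signal + 32), and probe sets above the 40th percentile of their array in at least 2 arrays were kept. The 10368 kept were tested with limma 3.58.1 in R 4.3.3 (lmFit, then eBayes with a trend, 2-sided), with Benjamini-Hochberg adjustment over all of them. A member was called at an adjusted p under 0.05. On simulated data with 200 of 10368 probe sets changed, the test called 31% of changes of 2-fold and 84% of those of 4-fold, and 4.96% of the calls were unchanged probe sets. In the real data 31.6% of all probe sets were called, so the cutoff on the unadjusted p was looser there. The simulated shares therefore do not give the share of changes that the test finds in these data. The members and lists were chosen with earlier results of these data known. Any member could be named. Values per array were given for up to 4 called members of a class with the largest change and both NICD arrays outside the untreated range, or else for the 2 with the highest mean signal, and for their other copies. Further members were described per array after their values were seen: atp5f1b.S, atp5if1.L, atp5pf.L, cox4i1.S, etfb.L, mrpl12.L and mrpl38.L. From each other list up to 4 genes past the test with the largest change were named, and mpc1.S and mpc2.S likewise after their values were seen. In the same way pparg.L and the other tested copies of the genes named were added. Alternatives covered scaling, pseudocount, filter, array weights, blocks, threshold, probe set choice and each array left out. Whether the replicate numbers of the labels pair the samples could not be told, since NICD 1 shares its day with both untreated 1 and untreated 2. Deviations from the group means correlated at 0.20 (NICD 1 with untreated 1) and -0.23 (NICD 2 with untreated 2). NICD 1 also correlated at 0.23 with untreated 2, of its own day, and at -0.12 and -0.28 with untreated 3 and untreated 4. With 2 NICD arrays, the values of NICD 2 are those of NICD 1 with the sign reversed and add nothing.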

Additional observations from a re-analysis of the deposited data

Results flagged for a closer look

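In 4 of the 110 tested members, 1 of the untreated arrays stood far from the other untreated arrays by Dixon's criterion. Chance alone sets this off in about 1 in 20 groups. None of these members passed the test with all arrays. For atp5mc1.L, a ring subunit of ATP synthase, untreated 3 had 1066.1, against 365 to 418.5 in the other untreated arrays. For mrps26.L, of the small mitochondrial ribosome, untreated 2 had 1481, against 1917.5 to 1999 in the others. For ndufs3.S, of complex I, untreated 4 had 198, against 157 to 162 in the others. For sdhb.S, of complex II, untreated 3 had 668, against 1076 to 1151 in the others.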

How the results depend on the processing

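No called member changed direction in any alternative run, but the medians of complexes I, II and IV and ATP synthase, all near 0, changed sign in some. Of the 19 calls, those of mrps15.L, mrpl3.S, ndufa8.L and atp5f1a.L held in all 17 alternatives with a test, though mrps15.L met the filter only through the NICD arrays. Leaving out each array in turn, the members higher ranged between 3 and 14 and those lower between 2 and 7. The mitochondrial ribosome then had 2 to 9 higher, and ATP synthase 1 to 2 lower and 0 to 1 higher. Median log2 changes ranged between -0.12 and 0.084 for ATP synthase, -0.15 and 0.14 for complex I, 0.25 and 0.53 for the large and 0.33 and 0.44 for the small mitochondrial ribosome. Centring on the median gave 5 members lower, 3 of them in ATP synthase (16.0% of all probe sets lower). No filter gave 4 and 2 (10.6% of all probe sets lower), and a small ribosomal median of 0.28. A filter at the 60th percentile gave medians of -0.23 for complex IV and 0.61 for the small ribosome, and merging the copies of a gene -0.044 and 0.55. Under the day block, and likewise at an adjusted p under 0.10, 21 members were higher, 12 of them mitochondrial ribosomal, with 20.4% of all probe sets higher in either fit. Within day 1 the medians were 0.077 for all members, -0.12 for ATP synthase, 0.49 for the electron transfer flavoprotein, 0.31 for the large and 0.30 for the small ribosome. Within day 2 they were 1.32 for the flavoprotein and 0.61 for the large ribosome. The causes were not tested.

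Whether the replicate numbers pair the samples could not be told, and untreated 3 and 4 have no partner under them. With the replicate block 5 members were lower, and ATP synthase had 2 lower and 1 higher, where 14.7% of all probe sets were lower and 14.3% higher. Medians under this block were 0.061 for all members, -0.23 for complex II, -0.20 for ATP synthase and 0.26 for the small ribosome. With the probe sets naming both copies of 1 gene added, 12 members were higher and 8 lower. Signals near the filter limit the size of change that can be read for members such as mrps15.L and ndufb4.S.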
